A study of Mus musculus with 18 samples.

Results

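The respiratory chain and ATP synthase genes of mouse skin were examined after treatment with detergent A, detergent B or phosphate-buffered saline (PBS), the control. The members were the protein-coding genes whose symbols begin with Ndufa, Ndufb, Ndufc, Ndufs, Ndufv, Uqcr, Cox4 to Cox8 or Atp5, together with Sdha, Sdhb, Sdhc, Sdhd, Cyc1 and the protein-coding genes of mitochondrial DNA. This gave 107 genes of the 41605 in the count files, 94 of them in the nucleus and 13 in mitochondrial DNA. Assigned by their symbols, the nuclear members comprised 36 genes of complex I, 4 of complex II, 9 of complex III, 20 of complex IV and 17 of complex V. Not every gene so assigned need encode a structural subunit. The prefix Ndufa also took in 8 assembly factors of complex I, Ndufaf1 to Ndufaf8, which help to build the complex without staying in it. Ndufa4 and its paralog Ndufa4l2 were counted with complex IV, since the Ndufa4 protein is now known as a subunit of cytochrome c oxidase.

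Complexes I to IV sit in the inner mitochondrial membrane and pass electrons from NADH and succinate to oxygen. Complexes I, III and IV pump protons as they do so, and complex V, the ATP synthase, uses the proton gradient to make ATP. Complex II is coded entirely in the nucleus, whereas complexes I, III, IV and V combine nuclear subunits with a core made inside the mitochondrion from its own DNA.

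Each group held 6 bulk RNA-seq libraries of skin from C57BL/6 mice of 8 to 12 weeks, with no allele or transgene named in any group. The labels give no dose, duration, body site or number of animals behind a library, so the p-values below measure the spread between these samples. Total counts ranged from 17312623 to 29599018 per library. Values are CPM, counts divided by the size of their library in the usual CPM unit, with library sizes adjusted by TMM. A gene is said to have risen or fallen only where the adjusted p of edgeR's quasi-likelihood test, corrected over 16836 genes, was under 0.05.

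Detergent B replicate 4 stood apart from the other libraries in these genes, and hair shaft keratin genes differed widely between libraries of every group. The summed hair shaft markers ranged from 20.6 to 567 CPM with PBS, from 3.85 to 308 CPM with detergent A and from 3.59 to 197 CPM with detergent B. The list has 15 genes, 14 of which were matched and 13 tested, and Krtap13 had at most 3 counts in any library. All 13 tested hair shaft genes had log2 fold changes below 0 against PBS with each detergent, and 0 of them passed the test. The balance between genes rich and poor in G and C also differed. The difference in median log2 CPM between the top and the bottom decile of GC content, taken against the PBS mean, was -0.08 to 0.05 with PBS, -0.50 to -0.12 with detergent A and -0.44 to -0.02 with detergent B, so that detergent A lay below PBS and detergent B overlapped it.

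Of the 13 mitochondrially coded genes, 7 had usable counts and 6 were near 0 in nearly every library. The 7 were mt-Nd1, mt-Nd2, mt-Nd4, mt-Nd5 and mt-Nd6 of complex I, mt-Cytb of complex III and mt-Co1 of complex IV. The genes near 0 were mt-Co2 and mt-Co3 of complex IV, mt-Atp6 and mt-Atp8 of complex V, and mt-Nd3 and mt-Nd4l of complex I. Mitochondrial genes are transcribed together on long precursors. Their sequences were compared with other annotated transcripts in windows of 50 bases.

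Of the genes near 0, 5 have annotated nuclear copies that match them base for base over the aligned stretch. A block of unprocessed pseudogenes on chromosome 1, from 24611535 to 24616197 on the minus strand (GRCm38), carries copies named Gm28661, Gm10925, Gm28437, Gm28438 and Gm10222. The share of windows found in another annotated transcript was 100% for mt-Co2, 99.9% for mt-Co3, 99.5% for mt-Atp6, 98.8% for mt-Nd4l and 98% for mt-Nd3. It was 62.2% for mt-Nd4, 51.1% for mt-Co1, 8.2% for mt-Nd2 and 7.6% for mt-Nd5, and 0% for mt-Nd1, mt-Cytb and mt-Nd6. mt-Atp8 also had 0%, yet lies between mt-Co2 and mt-Atp6 and overlaps the start of the latter. Only annotated transcripts were searched. The copy of mt-Atp6 ends at chr1:24614651 and that of mt-Co2 starts at chr1:24614885, and the stretch between lies outside both. The 0% therefore does not show that mt-Atp8 lacks a nuclear copy. None of these pseudogenes is listed in the count files.

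The start of mt-Co2, which encodes subunit 2 of cytochrome c oxidase, is shown because its copy Gm28661 is identical over 681 aligned bases with 0 mismatches. These are bases 1 to 60 of the gene, at chrM:7013-7072 on the plus strand (GRCm38), and the same letters open Gm28661.
mt-Co2: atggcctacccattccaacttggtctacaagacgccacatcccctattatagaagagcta
The copy of mt-Co1, Gm29216, covers the last part of the gene and holds 1 mismatch over the aligned stretch, A1066T, counted from 1 at the first base of mt-Co1. The stretch around it is shown from both sources with the differing base in capitals, at chrM:6390-6430 on the plus strand and chr1:24616148-24616188 on the minus strand.
mt-Co1: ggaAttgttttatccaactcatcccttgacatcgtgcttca
Gm29216: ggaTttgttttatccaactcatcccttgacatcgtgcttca

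How reads that match several places were handled is not given in the sources used here, and its part in the values near 0 was not tested. Among the genes near 0 there were isolated exceptions. mt-Atp6 was at 58.2 CPM (1476 counts) in detergent B replicate 3 and at 5.6 CPM in detergent A replicate 1, with the other libraries at or below 1.02 CPM. mt-Co2 was at 52.5 CPM (958 counts) in detergent B replicate 4, and the other libraries were at or below 0.59 CPM. Whether the transcripts of these 6 genes were low was not tested.

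**Figure D1:**
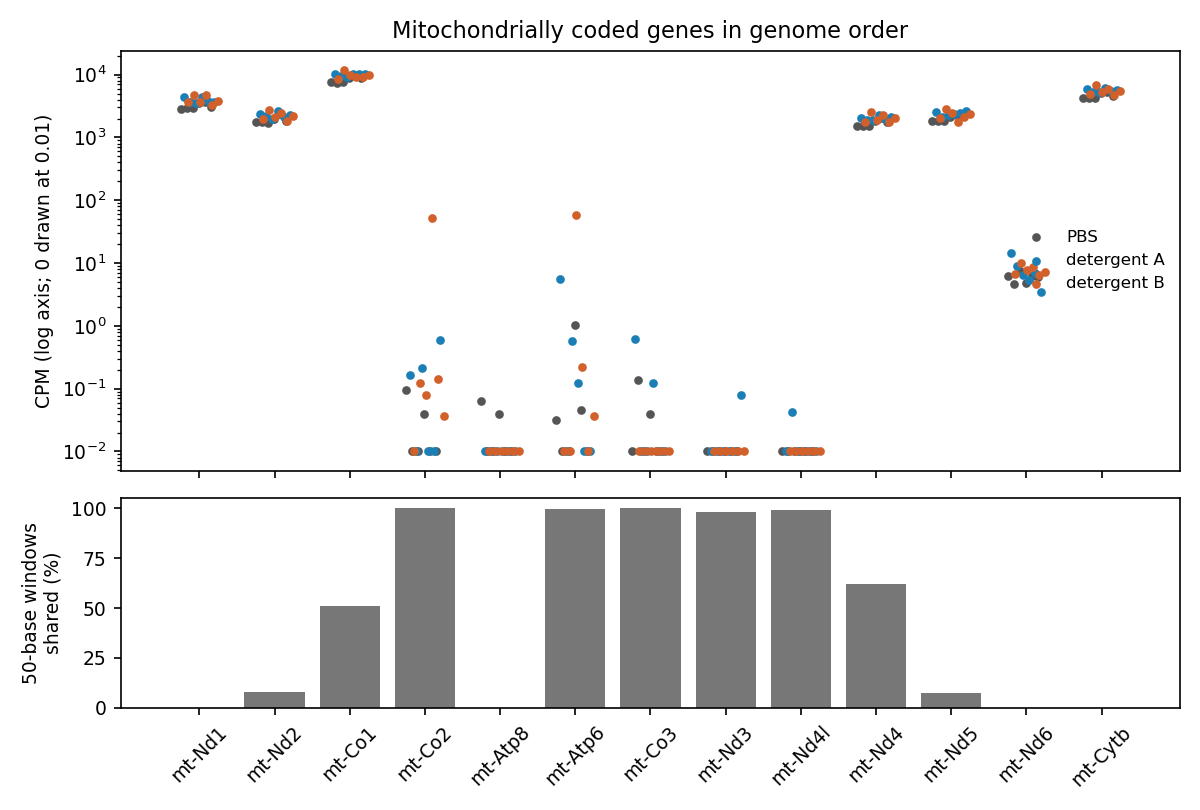
CPM of the 13 mitochondrially coded genes in genome order, 1 point per library on a log axis with values of 0 drawn at 0.01 (grey, PBS; blue, detergent A; orange, detergent B), above the share of each gene's 50-base windows found in another annotated transcript. mt-Co2, mt-Atp6, mt-Co3, mt-Nd3 and mt-Nd4l share 98% or more of their windows and lie near 0. mt-Atp8 lies near 0 with 0% shared, which does not show that it lacks a nuclear copy, as only annotated transcripts were searched.

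Of the 7 measured mitochondrial genes, 6 were at higher CPM per kb with PBS than every nuclear member, and mt-Nd6 was low. mt-Co1, the catalytic subunit of complex IV, was at 7260, 8188 and 9626 CPM (lowest, median and highest) with PBS, at 9053, 10230 and 10390 CPM with detergent A, and at 8533, 9412 and 11920 CPM with detergent B. Its libraries of both detergents lay above the PBS median in every case, and the groups overlapped. mt-Nd1, a membrane subunit of complex I, was at 2844, 2986 and 3714 CPM with PBS, at 3579, 3726 and 4384 CPM with detergent A, and at 3304, 3773 and 4751 CPM with detergent B, again with overlap. mt-Nd6, the only protein gene on the opposite strand of mitochondrial DNA, was at 5.91 ± 1.06 CPM with PBS (SD, n = 6), and its annotated end overlaps that of mt-Nd5, so reads from the overlap cannot be assigned without strand.

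Per kilobase of transcript, the levels spanned a wide range. With PBS mt-Co1 was at 5354 CPM per kb, mt-Cytb at 4060, mt-Nd1 at 3307, mt-Nd2 at 1830, mt-Nd4 at 1232 and mt-Nd5 at 1107. The values of mt-Nd4 and mt-Co1 are uncertain, since 62.2% and 51.1% of their windows are found in other annotated transcripts. The highest nuclear member was Atp5b, the catalytic beta subunit of ATP synthase, at 562.5 CPM per kb. It was followed by Ndufa4 at 342, Cox4i1 at 339.5 and Cox6b1 at 322, all of complex IV. The succinate dehydrogenase genes of complex II were lower, with Sdhb at 82.8, Sdhd at 68.7, Sdha at 65.6 and Sdhc at 24.3 CPM per kb. The complex I assembly factors lay between 3.72 CPM per kb for Ndufaf6 and 14.9 for Ndufaf2.

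Some low nuclear members also share sequence, and they were picked out after their values were seen. Ndufb4 was at 5.78 CPM per kb with 37% of its windows in another annotated transcript, Ndufs5 at 17.2 with 31.1%, and Atp5l at 20.4 with 84.8%. Atp5g2, which encodes a copy of the c subunit, was at 56.5 CPM per kb with 87.4% of its windows shared. The levels of these genes as single genes are therefore uncertain. Ndufa4, Cox6b1 and Atp5mpl shared no window, and Ndufb3 shared 6.7%.

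With detergent B, 4 of the 99 members that passed the filter on low counts rose and 0 fell. These 4.04% compare with 3.05% of all 16836 genes called in either direction, 1.97% called higher and 1.08% called lower. The members that rose were Ndufa4 and Cox6b1 of complex IV, Atp5mpl of complex V and Ndufb3 of complex I. The members not tested were Cox7b2, Cox8c and the 6 mitochondrial genes near 0. In bulk skin, fewer cells of a type and less RNA per cell cannot be told apart.

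Ndufa4 (ENSMUSG00000029632, chromosome 6, 11900292 to 11907497, minus strand, GRCm38) encodes a small subunit of cytochrome c oxidase. It was at 174.9, 206.2 and 237.2 CPM with PBS, at 231, 262.5 and 324.9 CPM with detergent A, and at 254.4, 296.7 and 453.7 CPM with detergent B (lowest, median and highest of 6). Every detergent B library lay above every PBS library, and the detergent A libraries lay between with overlap on both sides. Ndufa4 rose 1.52-fold with detergent B, a log2 fold change of 0.60 ± 0.13 (SE, adjusted p = 0.02401, edgeR), with 6 of 6 libraries above the PBS mean. With detergent A its log2 fold change was 0.38 ± 0.13 (SE, adjusted p = 0.1319, edgeR), and between the detergents it was 0.22 (adjusted p = 0.9887, edgeR).

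Atp5mpl (ENSMUSG00000021290, chromosome 12, 111961375 to 111966977, minus strand) encodes a small proteolipid that associates with ATP synthase. Its PBS libraries were at 63.7, 69.8 and 74.6 CPM, those of detergent A at 64.2, 84 and 87.6 CPM, and those of detergent B at 81.3, 87.5 and 133 CPM. PBS and detergent B did not overlap. The log2 fold change with detergent B was 0.47 ± 0.11 (SE, adjusted p = 0.03258, edgeR), and that with detergent A was 0.22 (adjusted p = 0.2929, edgeR).

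Ndufb3 (ENSMUSG00000026032, chromosome 1, 58586384 to 58595964, plus strand) encodes an accessory subunit in the membrane arm of complex I. It was at 38.2, 42.5 and 47.7 CPM with PBS, at 42.5, 47.5 and 50.2 CPM with detergent A, and at 48.1, 52.5 and 82.8 CPM with detergent B. The lowest detergent B library exceeded the highest PBS library by less than 1 CPM. Its log2 fold change was 0.42 ± 0.11 with detergent B (SE, adjusted p = 0.04517, edgeR) and 0.14 with detergent A (adjusted p = 0.5091, edgeR).

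Cox6b1 (ENSMUSG00000036751, chromosome 7, 30616861 to 30626151, minus strand) encodes a subunit of complex IV that faces the intermembrane space. It was at 177, 201.5 and 222 CPM with PBS, at 185, 241 and 263 CPM with detergent A, and at 199, 259 and 366 CPM with detergent B. PBS and detergent B overlapped, with 5 of 6 detergent B libraries above the PBS mean. Its log2 fold change was 0.44 ± 0.12 with detergent B (SE, adjusted p = 0.04851, edgeR) and 0.24 with detergent A (adjusted p = 0.2702, edgeR).

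**Figure D2:**
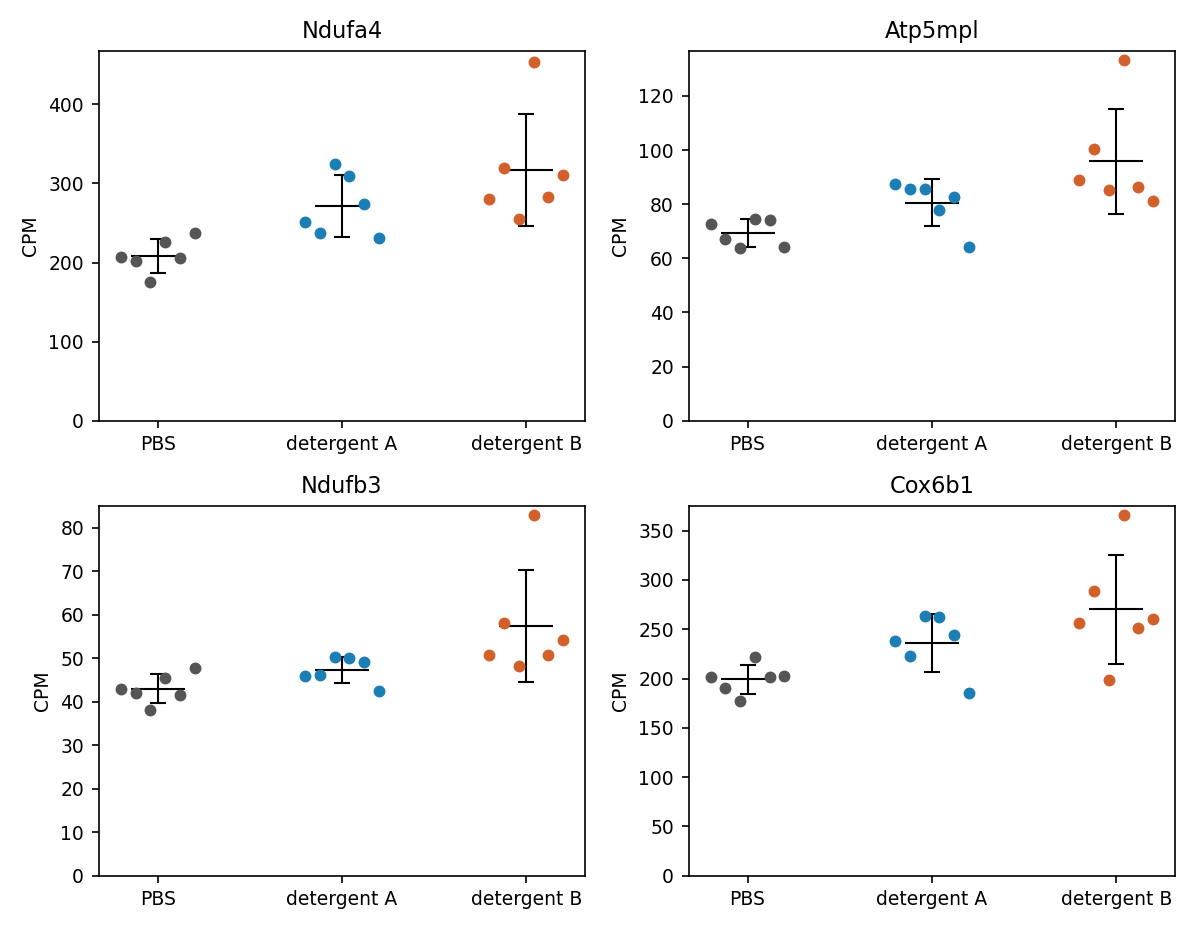
CPM of the 4 members that rose with detergent B, 1 point per library with the mean and SD of 6 libraries per group. Detergent B libraries lie above all PBS libraries for Ndufa4, Atp5mpl and Ndufb3, and replicate 4 of detergent B, the fourth point from the left, is the highest library in each panel.

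The 4 calls depended on single libraries. Without detergent B replicate 4, the highest library for each, 3 members passed (Atp5mpl, Ndufa4 and Ndufb3). No member passed without PBS replicate 2, 3 or 5 or without detergent B replicate 2, 1 passed without PBS replicate 1 or detergent B replicate 5, and 2 passed without PBS replicate 4, detergent B replicate 6 or detergent A replicate 1, 4 or 5. The count was 11 without PBS replicate 6, 8 without detergent B replicate 1 and 19 without detergent B replicate 3. The share of all genes called moved as well. It was lowest without PBS replicate 3, at 0.165% (0% of the members), and highest when PBS replicate 6 was left out, at 11.1% (11.1% of the members). Without detergent B replicate 3 it was 19.2% of the members against 6.19% of all genes.

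The tool and the corrections also moved both counts. DESeq2 called 19 members, 19.2% against 7.71% of all genes with an adjusted p, and limma voomWithQualityWeights called 44 members (43 higher and 1 lower), 44.4% against 30.1% of all genes. After a correction for GC content 2 members passed, 2.02% against 1.73% of all genes, and after one for length 7 passed, 7.07% against 3.61%. With the hair shaft score as a covariate 0 members passed (lowest adjusted p = 0.2833, edgeR, with 11 members at an unadjusted p under 0.05), and so did 0 of all 16836 genes.

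Beyond the 4 calls, most members had small positive fold changes with detergent B. The log2 fold change was above 0 for 92 of 99 members, against 48.7% of all genes tested, and 49 members had an unadjusted p under 0.05, 48 of them higher, against 23.3% of all genes. The median log2 fold change was 0.22, which corresponds to a fold of 1.17. The 7 members with values below 0 were Ndufs7, Ndufaf4, Ndufaf8, Sdhb, Cox4i2, Cox8a and Cox6b2, from -0.02 to -0.50. Cox6b2, the testis form of subunit 6b, had the lowest value, -0.50 ± 0.23 (SE, adjusted p = 0.1979, edgeR), at 8.22 ± 1.96 CPM with PBS and 5.82 ± 0.9997 CPM with detergent B (SD, n = 6).

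Groups of libraries did not overlap between PBS and detergent B for 5 members, Ndufa4, Atp5mpl, Ndufb3, Uqcrh and Uqcrb, all higher. Over all genes tested, 1.72% did not overlap in that direction. Uqcrh, the hinge protein of complex III, was at 147, 169 and 182 CPM with PBS and at 187, 204 and 316 CPM with detergent B, and did not pass (log2 fold change 0.39 ± 0.11 SE, adjusted p = 0.0531, edgeR). Uqcrb, a small subunit of complex III named after its values were seen, was at 95.8, 108 and 116 CPM with PBS and at 120, 127.5 and 212 CPM with detergent B, and did not pass (adjusted p = 0.06684, edgeR). Uqcrb shares 43.4% of its windows with other annotated transcripts.

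By complex, the median log2 fold change with detergent B was highest for complex IV and lowest for the assembly factors, and no difference between complexes was tested. It was 0.21 over 36 genes of complex I, 0.16 over 4 of complex II, 0.19 over 9 of complex III, 0.295 over 18 tested of complex IV and 0.26 over 17 of complex V. Over the 8 assembly factors it was 0.105, with 2 of 8 below 0 and none at an unadjusted p under 0.05. All 9 genes of complex III and all 17 of complex V were above 0, as were 35 of 36 of complex I. Complex IV had both the highest member, Ndufa4, and the lowest, Cox6b2.

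Named subunits of each complex that did not pass with detergent B are given in the order of the chain. In complex I, Ndufs1, the large iron-sulfur subunit, had a log2 fold change of 0.24 and was at 103.8 ± 11.4 CPM with PBS and 122 ± 9.08 CPM with detergent B (SD, n = 6). Ndufa1, an accessory subunit needed for assembly, was at 52 ± 3.86 CPM with PBS and 68.6 ± 15.8 CPM with detergent B. Ndufv1, the flavin-bearing subunit that takes electrons from NADH, had a log2 fold change of 0.08. Their adjusted p-values were 0.08283, 0.07093 and 0.5294 (edgeR).

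Among the 5 complexes, complex II had the lowest median log2 fold change with each detergent, 0.16 with detergent B and 0.03 with detergent A. Sdha, the flavoprotein that oxidises succinate, was at 181, 190 and 201 CPM with PBS, at 182, 196 and 215 CPM with detergent A, and at 199.5, 206 and 240 CPM with detergent B. Sdhb, the iron-sulfur subunit, had log2 fold changes of -0.02 with detergent B and -0.10 with detergent A. Sdhc and Sdhd, the membrane anchors, had values of 0.16 and 0.21 with detergent B and of 0.00 and 0.09 with detergent A. The lowest adjusted p in complex II was 0.1337 (Sdhd, edgeR).

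In complex III, Uqcrfs1, the Rieske iron-sulfur protein, was at 84 ± 5.51 CPM with PBS and 102 ± 16.8 CPM with detergent B (SD, n = 6, adjusted p = 0.07241, edgeR). Cyc1, which carries the haem of cytochrome c1, had a log2 fold change of 0.10, and Uqcrc1, a core subunit, one of 0.17. In complex V, the catalytic core genes Atp5a1 and Atp5b had log2 fold changes of 0.17 and 0.13, whereas Atp5o, a subunit of the stalk, had one of 0.34 (adjusted p = 0.05898, edgeR). Atp5g1, which encodes the c subunit of the rotor, had one of 0.25.

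**Figure D3:**
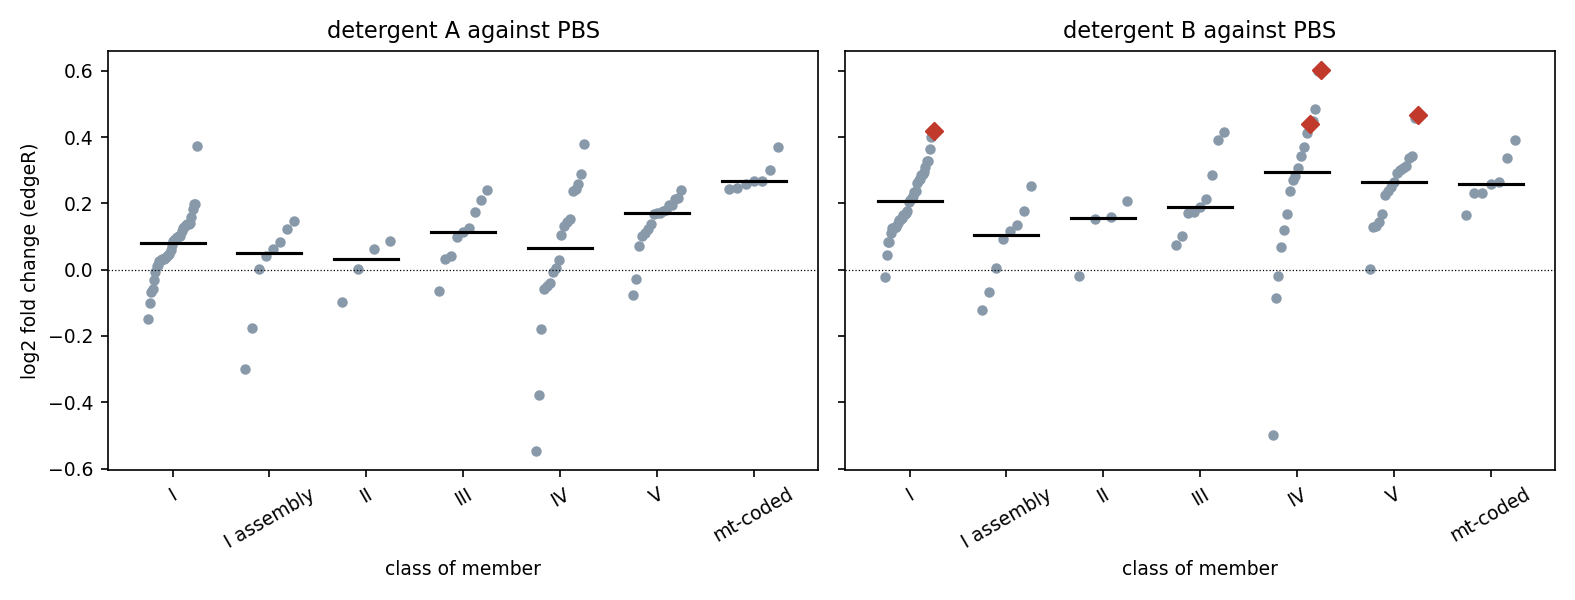
Log2 fold changes against PBS of the 99 tested members by class, for detergent A (left) and detergent B (right), with 1 point per gene, a bar at the class median and red diamonds for genes with an adjusted p under 0.05 by edgeR. With detergent A the mitochondrially coded genes have a median of 0.27. The medians of complexes I to V with detergent A are 0.08, 0.03, 0.11, 0.07 and 0.17 in that order. With detergent B the medians of complexes IV and V are close to that of the mitochondrially coded genes.

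With detergent A, 0 of 99 members passed, against 0.19% of all genes tested. The lowest adjusted p was 0.09854 (edgeR, Uqcrc2), 15 members had an unadjusted p under 0.05 against 18.8% of all genes, and DESeq2 called 2 members (Uqcrc2 and mt-Co1) and limma voomWithQualityWeights 15. These are 2.02% of members against 4.97% of all genes with an adjusted p for DESeq2, and 15.2% against 23.2% for limma. Without detergent A replicate 6 Uqcrc2 passed, 1.01% of members, and 4.55% of all genes were called. The log2 fold change was above 0 for 80 of 99 members, against 48.4% of all genes. The 2 comparisons with PBS share the PBS libraries, so their directions are not independent.

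Uqcrc2, a core subunit of complex III on chromosome 7 from 120635176 to 120659524, was at 152.9, 158.5 and 173.1 CPM with PBS and at 173.3, 186.6 and 197.1 CPM with detergent A, without overlap. Its log2 fold change was 0.21 ± 0.06 (SE), and 24.8% of its windows are found in other annotated transcripts. Atp5c1, the gamma subunit that forms the rotating shaft of ATP synthase, was at 180, 196 and 209 CPM with PBS and at 218, 220 and 234 CPM with detergent A (log2 fold change 0.19, adjusted p = 0.2174, edgeR). Atp5h, named after its values were seen, was the other member without overlap, and 0.404% of all genes did not overlap in the higher direction.

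Nuclear and mitochondrial genes were set side by side, and the difference between these classes was not tested. The median log2 fold change against PBS was 0.27 for the 7 mitochondrial genes and 0.095 for the 92 nuclear genes with detergent A, and 0.26 and 0.21 with detergent B. The nuclear median with detergent A was 0.057 without detergent A replicate 4 and -0.003 with the hair shaft score as a covariate. Directly between detergent B and detergent A, 90 of 92 nuclear genes were above 0, with a median of 0.135, against 49.9% of all genes tested above 0. Without detergent B replicate 4 the nuclear median between the detergents was 0.025, with 70 of 92 genes above 0 and 0 at an unadjusted p under 0.05. Without detergent B replicate 3 it was 0.19, with 25 nuclear genes at an unadjusted p under 0.05, and without detergent A replicate 4 it was 0.18, with 12. For the mitochondrial genes 3 of 7 were above 0 and the median was -0.01. Yet 0 members passed between the detergents, as did 0% of all genes, with the lowest adjusted p among members at 0.9887 (edgeR) and 6 members at an unadjusted p under 0.05, against 3.27% of all genes, and DESeq2 and limma voomWithQualityWeights also called 0 members. For 0 members did the libraries of the detergents not overlap, against 0.0594% of all genes.

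The summed level of the nuclear members is given by library. As a percentage of TMM-scaled counts it was 0.915, 0.982 and 1.04 with PBS (lowest, median and highest), 0.962, 1.05 and 1.17 with detergent A, and 0.948, 1.13 and 1.48 with detergent B. The highest value belonged to detergent B replicate 4, and without it the detergent B mean went from 1.16 ± 0.18 to 1.09 ± 0.09 (SD) and its highest library was at 1.17. The 3 groups overlapped.

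The mitochondrial sum is a partial measure, since 6 of the 13 genes were near 0 and it rests on the 7 measured genes. The summed mitochondrially coded genes made up 1.96, 2.1 and 2.53% of TMM-scaled counts with PBS, 2.4, 2.64 and 2.8% with detergent A, and 2.28, 2.56 and 3.16% with detergent B. As a percentage of raw counts the groups lay closer, at 2.1, 2.17 and 2.74 with PBS. The raw values were 2.18, 2.64 and 2.76 with detergent A, and 2.18, 2.44 and 2.98 with detergent B. The highest library was detergent B replicate 2, not replicate 4. The ratio of the mitochondrial to the nuclear sum was 2.01 to 2.46 with PBS, 2.08 to 2.78 with detergent A and 1.78 to 2.7 with detergent B, the lowest being detergent B replicate 4. Groups overlapped in each measure. The ribosomal RNA genes of mitochondrial DNA, mt-Rnr1 and mt-Rnr2, summed to 0.0528 ± 0.0072% with PBS (SD, n = 6). The sum was 0.0664 ± 0.0087% with detergent A and 0.0689 ± 0.0110% with detergent B. The groups overlapped here too, and the difference was not tested.

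**Figure D4:**
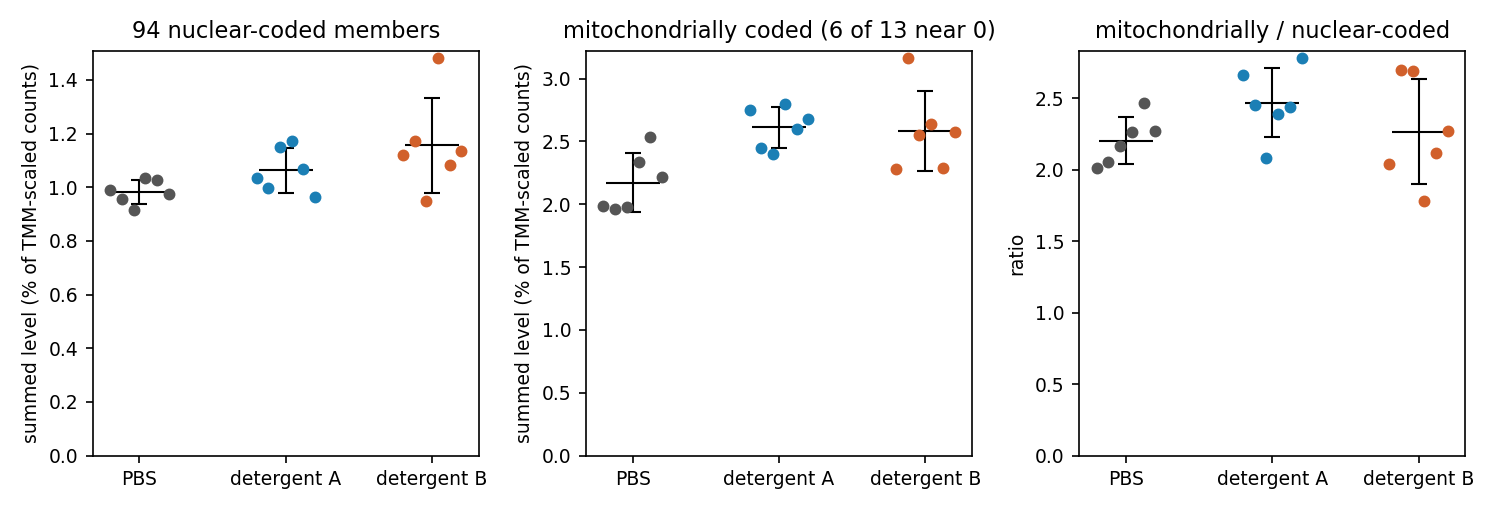
Summed level of the 94 nuclear and the 13 mitochondrially coded members as a percentage of TMM-scaled counts, and the ratio of both, 1 point per library with the mean and SD of 6 libraries per group. The mitochondrial sum rests on 7 genes, the other 6 being near 0. Detergent B replicate 4 has the highest nuclear sum, 1.48%, and the lowest ratio, 1.78, and every group overlaps with the others.

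Properties that members share moved with these values. The tested nuclear members have a median transcript length of 863 bases, against 2765 for all genes tested, and a median GC content of 51.4%, against 50.1%. The mitochondrial genes have a median GC content of 37.1%. Among nuclear members the median log2 fold change was 0.25, 0.23 and 0.15 in the lowest, middle and highest tertile of GC content with detergent B, and 0.14, 0.08 and 0.03 with detergent A. After a correction for GC content the nuclear median was 0.22 with detergent B and 0.085 with detergent A, and the mitochondrial median was 0.21 and 0.20. After a correction for length the nuclear medians were 0.14 and 0.08, and the mitochondrial medians 0.16 and 0.255. That correction used the total exon length of each gene, not the transcript length given above.

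The fits were repeated with scores of hair shaft and muscle markers as covariates. No relation of these scores to the members as a set was tested. The hair shaft score ran from -0.245 to 4.875 with PBS and from -2.316 to 2.182 with detergent B. As a covariate it can therefore also take up difference between groups. With the hair shaft score as a covariate, the nuclear median was 0.115 with detergent B, with 70 of 92 genes above 0, and -0.00 with detergent A, with 44 of 92 above 0. The mitochondrial medians with that covariate were 0.17 and 0.21, with all 7 genes above 0 for each detergent. With a skeletal muscle score as a covariate the nuclear medians were 0.18 and 0.10, and 1 member, Ndufa4, passed with detergent B. Of 8 suprabasal keratinocyte markers 5 rose with detergent B, 62.5% against 1.97% of all genes called higher. These 8 markers summed to 8924 to 21710 CPM with PBS, 14180 to 35550 with detergent A and 22120 to 38590 with detergent B. None of the 8 was at 0. Their part in the members' values was not tested.

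Several complex IV subunits exist in a ubiquitous form and a form of heart and skeletal muscle, and skin samples can include the thin muscle layer under the skin. The 15 skeletal muscle markers were all tested, 0 passed, and 14 had log2 fold changes above 0 with detergent B. They summed to 6512, 9031 and 12880 CPM with PBS, to 6009, 10480 and 13400 CPM with detergent A, and to 8142, 13000 and 18020 CPM with detergent B, with overlap of all groups and no marker at 0. Acta1, skeletal alpha-actin, was at 2261 ± 592 CPM with PBS and 3051 ± 1022 CPM with detergent B, and Ckm, muscle creatine kinase, at 876 ± 286 and 947 ± 224 CPM (SD, n = 6).

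Brown adipocytes, which are rich in mitochondria, also express Cox7a1 and Cox8b. Of 5 brown adipocyte markers 4 were tested and 0 passed with either detergent, and Ucp1, the uncoupling protein that defines these cells, had too few counts to be tested. Of the 4 tested, 3 had log2 fold changes above 0 with each detergent, Elovl3, Cidea and Dio2, and Ppargc1a was below 0. Elovl3 and Cidea are also genes of the sebaceous gland. The 5 markers summed to 154.5, 263.9 and 355.2 CPM with PBS, to 247.9, 460 and 586.7 CPM with detergent A, and to 260.6, 444.3 and 531 CPM with detergent B, with overlap of all groups. The median log2 fold change of the 4 was 0.535 with detergent B and 0.47 with detergent A, with lowest adjusted p-values of 0.06979 and 0.09761 (edgeR). The part of these markers in the members' values was not tested.

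Cox6a2, the muscle form of subunit 6a, was at 64.1, 77 and 120 CPM with PBS, at 52.2, 68.5 and 155 CPM with detergent A, and at 48, 101 and 134 CPM with detergent B. Cox7a1 was at 14.4, 15.4 and 25.5 CPM with PBS, at 12, 16.8 and 25.2 CPM with detergent A, and at 16.9, 20.4 and 42.1 CPM with detergent B. Cox8b was at 31.3, 39.2 and 67.7 CPM, at 27.4, 37.2 and 74.6 CPM, and at 34.9, 53.9 and 82.2 CPM in the same order. The ranges of all 3 muscle forms overlapped between groups, and their adjusted p-values with detergent B were 0.5235, 0.2033 and 0.3012 (edgeR).

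Across the 18 libraries the muscle forms followed the summed muscle markers on the log2 scale. For Cox6a2 Pearson's r was 0.72 and Spearman's rho 0.68 (permutation p = 0.00077 and 0.0024, adjusted over 12 relations 0.0046 and 0.0066). For Cox8b r was 0.73 and rho 0.68 (permutation p = 0.00062 and 0.0028, adjusted 0.0046 and 0.0066), and for Cox7a1 r was 0.67 and rho 0.59 (permutation p = 0.0021 and 0.011, adjusted 0.0066 and 0.022). Without the 2 libraries farthest from the median of the muscle sum r was 0.61, 0.63 and 0.57 for Cox6a2, Cox8b and Cox7a1, and after the group mean was taken from each value it was 0.70, 0.68 and 0.59. All values in a library share its depth and scaling.

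The ubiquitous forms had lower coefficients over all 18 libraries. For Cox6a1 r was 0.17 and rho 0.15, and for Cox8a r was -0.06 and rho 0.05 (permutation p = 0.5, 0.56, 0.81 and 0.85, adjusted 0.67, 0.67, 0.85 and 0.85). For Cox7a2 r was 0.36 and rho 0.27 (permutation p = 0.14 and 0.27, adjusted 0.24 and 0.41). Without the 2 farthest libraries r was 0.57 for Cox7a2, the same as for Cox7a1, 0.39 for Cox6a1 and 0.10 for Cox8a. After the group mean was taken from each value r was 0.08 for Cox6a1, 0.21 for Cox7a2 and -0.04 for Cox8a. The differences between coefficients were not tested. In absolute level the ubiquitous forms were higher in skin, with Cox6a1 at 300 CPM per kb against 120 for Cox6a2, Cox7a2 at 153.5 against 43.9 for Cox7a1, and Cox8a at 222 against 118 for Cox8b with PBS.

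**Figure D5:**
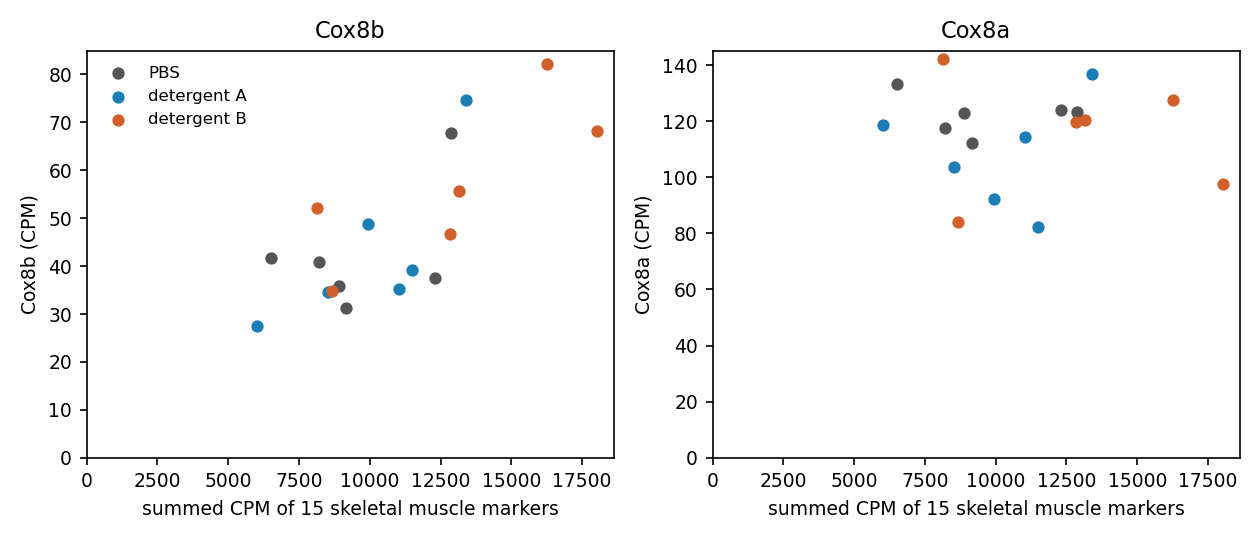
CPM of Cox8b (left, the muscle form of subunit 8) and Cox8a (right, the ubiquitous form) against the summed CPM of 15 skeletal muscle markers in each of 18 libraries. Cox8b is higher in libraries with more muscle marker RNA (r = 0.73 on the log2 scale), and for Cox8a r is -0.06.

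Further isoforms were named by rule. Cox4i1, the common form of subunit 4, was at 260 ± 13.1 CPM with PBS, and Cox4i2, its lung form, at 1.52 ± 0.37 CPM (SD, n = 6). Ndufa4l2, the hypoxia-inducible paralog of Ndufa4, was at 71.2, 91.7 and 163 CPM with PBS, at 66.9, 133 and 170 CPM with detergent A, and at 95.1, 153 and 223 CPM with detergent B. Its log2 fold change with detergent B was 0.60 ± 0.26 (SE), with a larger error than that of Ndufa4, and it did not pass (adjusted p = 0.1812, edgeR). Cox7a2l, which helps to join complexes III and IV into supercomplexes, had log2 fold changes of 0.17 with detergent B and -0.01 with detergent A.

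Genes around the chain were taken from lists of related pathways. Of 33 assembly factors of complexes II to V, 1 rose with detergent B, Atpaf2, which helps to assemble the catalytic part of ATP synthase, from 31.5 ± 1.92 to 39.7 ± 4.52 CPM (SD, n = 6, adjusted p = 0.04162, edgeR). This is 3.03% of the list, against 3.05% of all genes. None of 8 further complex I assembly factors, 17 genes of mobile carriers and coenzyme Q synthesis, 13 of the tricarboxylic acid cycle, 78 of the mitochondrial ribosome or 18 tested regulators of mitochondrial biogenesis passed with either detergent. Their median log2 fold changes with detergent B were 0.06, 0.22, 0.15, 0.08 and -0.05 in that order. With detergent A they were 0.07, 0.20, 0.145, 0.05 and -0.02, and that of the 33 assembly factors was 0.10 with detergent B and 0.04 with detergent A.

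Cycs, the gene of cytochrome c, was at 44.1 ± 4.5 CPM with PBS and 49.5 ± 9.33 CPM with detergent B, and Cs, citrate synthase, at 484 ± 33.3 and 566 ± 25.6 CPM (SD, n = 6, adjusted p = 0.4909 and 0.07783, edgeR). Ppargc1a, Nrf1, Esrra and Tfam, which encode a coactivator and factors that act on nuclear and mitochondrial genes of respiration, had log2 fold changes of -0.30, -0.12, 0.07 and -0.02 with detergent B, and none passed. The glycolysis list of 15 symbols matched 16 gene IDs, all tested, with a median of 0.36 with detergent B and 0.32 with detergent A. With detergent B 15 of them were above 0 and 1 below, at -0.73. In that list Tpi1, triose phosphate isomerase, rose from 363 ± 36.9 to 493 ± 69.8 CPM with detergent B (adjusted p = 0.03596, edgeR). Ldha, lactate dehydrogenase A, rose from 664 ± 80.8 to 926.5 ± 133.6 CPM (adjusted p = 0.04137, edgeR). These are 12.5% of the list, against 1.97% of all genes called higher, and 0 of 16 passed with detergent A.

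Promoter windows of 300 bases, from 250 before to 50 after the start, were available from RefSeq (GRCm38.p6) for 74 of the 94 nuclear members. The windows were searched on both strands for GCGCATGCG, the core of the site of NRF1, which is found in 13.5% of these members and 2.61% of all genes with a window. AAGATGGCG, a YY1 site, was in 10.8% against 2.14%, TCAAGGTCA, an ESRRA site, in 2.7% against 0.377%, and CCGGAAGT, an ETS site as bound by GABPA, in 6.76% against 5.69%. None of the motifs contains another. These are matches of letters and do not show binding.

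The 100 bases before the start are shown for 3 members with the NRF1 letters and for Uqcrh, the complex III gene closest to the threshold with detergent B, with letters that match a motif on either strand in capitals.
Atp5k: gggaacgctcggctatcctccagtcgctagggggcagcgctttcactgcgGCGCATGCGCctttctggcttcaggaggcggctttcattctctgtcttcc
Atp5g2: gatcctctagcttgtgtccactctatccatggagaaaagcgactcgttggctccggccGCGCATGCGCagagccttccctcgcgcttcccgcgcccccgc
Ndufa11: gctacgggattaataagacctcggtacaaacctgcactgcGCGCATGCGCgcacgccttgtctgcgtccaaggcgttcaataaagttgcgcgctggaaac
Uqcrh: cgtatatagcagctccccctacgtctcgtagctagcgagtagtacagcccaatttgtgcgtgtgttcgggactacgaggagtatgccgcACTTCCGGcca
They lie at chr5:108434400-108434499 on the minus strand for Atp5k, chr15:102671048-102671147 on the minus strand for Atp5g2, chr17:56717662-56717761 on the plus strand for Ndufa11 and chr4:116075071-116075170 on the minus strand for Uqcrh. In Uqcrh the capitals are the ETS letters read on the other strand. The other members with the NRF1 letters were Atp5l, Cox6a1, Ndufa8, Ndufaf4, Ndufaf5, Uqcr11 and Uqcrc1, and those with the ETS letters were Uqcr11, Atp5h, Cox8a and Ndufs3. The windows of Ndufa4, Ndufb3 and Cox6b1 held none of the 4 motifs, and Atp5mpl was not matched to a window.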

How the data were processed

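RNA sequencing of 18 skin libraries was deposited as raw counts of reads per gene, not normalised by the authors. The submitters' processing notes name STAR, featureCounts and GRCm38.p5. Not given in the sources used here are their versions, the annotation, the strand setting and the treatment of multimapped reads. Of 41605 gene IDs, 41519 matched the GENCODE M21 annotation (GRCm38). The members and gene lists were chosen with earlier results of these data known.

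The test was edgeR 4.0.16 under R 4.3.3 (default filter, TMM, robust quasi-likelihood fit to all 18 libraries with 15 residual degrees of freedom). Adjusted p-values are Benjamini-Hochberg values over 16836 genes (99.89% or more of every library's counts), with a threshold of 0.05. The standard error is the log2 fold change divided by the square root of F. The scripts were tested on simulated data.

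Named members were all those past the threshold, the smallest p of each class in each comparison, and a fixed set that included the Sdh genes and all mitochondrially coded genes. Exceptions are stated. Alternatives were DESeq2 1.42.0, limma 3.58.1 voomWithQualityWeights, other scalings and filters, covariates, GC and length corrections in 20 bins, a replicate block and each library left out. The length correction used the total exon length of each gene, with overlapping exons counted once. Log2 CPM used a prior count of 2. No pair of libraries agreed within sampling noise.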

Additional observations from a re-analysis of the deposited data

Results flagged for a closer look

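A library was singled out where the highest or lowest of the 6 in a group lay far from the other 5 (a gap to its neighbour, as a share of the group's range, above Dixon's critical value). Of 162 sets of 6 values examined, for the named members and the class sums, 28 met this, whereas chance gives about 1 in 20. In 14 of the 28 the library was detergent B replicate 4, as the highest. Members share a library, so these are not separate observations.

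In detergent B replicate 4, complex I genes stood out for Ndufb3 at 82.8 CPM, Ndufs1 at 140.0 CPM, Ndufv1 at 172.7 CPM and the assembly factor Ndufaf1 at 20.76 CPM. In complexes II and III Sdhc was at 109.9 CPM, Uqcrfs1 at 135.9 CPM and Uqcrh at 315.6 CPM. The complex II sum was 0.05864% of TMM-scaled counts against at most 0.04927% in the other detergent B libraries. In complexes IV and V Ndufa4 was at 453.7 CPM, Cox4i1 at 425.6 CPM, Cox7a2 at 185.0 CPM, Atp5g1 at 145.9 CPM and Atp5mpl at 133.2 CPM. In the same library mt-Co2 was at 52.46 CPM against at most 0.1437 CPM in the others of its group. The measured mitochondrially coded genes did not stand out in it.

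Muscle forms of complex IV were high in single libraries of other groups. Cox6a2 was at 155.0 CPM in detergent A replicate 4, and Cox7a1 at 25.54 CPM and Cox8b at 67.74 CPM in PBS replicate 5. Further members with gaps were Atp5c1 at 233.6 CPM in detergent A replicate 4 and Cyc1 at 148.1 CPM in detergent A replicate 3. The summed complex I assembly factors were lowest, 0.009475% of TMM-scaled counts, in PBS replicate 6.

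The remaining cases were mitochondrial genes near 0, where a few counts make a gap. mt-Atp6 was at 58.24 CPM in detergent B replicate 3, 5.605 CPM in detergent A replicate 1 and 1.021 CPM in PBS replicate 4. mt-Co2 was at 0.5947 CPM and mt-Nd3 at 0.07929 CPM in detergent A replicate 6, mt-Co3 at 0.6104 CPM in detergent A replicate 1 and 0.1371 CPM in PBS replicate 2, and mt-Nd4l at 0.04224 CPM in detergent A replicate 2.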

How the results depend on the processing

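The count of members called for detergent B against PBS, 4 as reported, was 19 with DESeq2, 44 with limma voomWithQualityWeights, 7 with a length correction, 2 with a GC correction, with no filter on low counts or with only the 12 libraries compared, 1 with a skeletal muscle score as covariate and 0 with a hair shaft score as covariate. It ranged from 0 to 19 when each library was left out in turn, while the share of all genes called ranged from 0.165% to 11.1%. That share, 3.05% as reported, was 7.71% with DESeq2 (of genes with an adjusted p) and 30.1% with limma voomWithQualityWeights. It was 3.61% with the length and 1.73% with the GC correction, 0.895% with no filter and 4.48% with only the 12 libraries. The skeletal muscle covariate gave 1.35% and the hair shaft covariate 0%. For detergent A against PBS the count, 0 as reported, was 2 with DESeq2 and 15 with limma voomWithQualityWeights, ranged from 0 to 1 with a library left out, and was 0 in the other settings. Between the detergents it was 0 in every setting. The nuclear median log2 fold change went from 0.212 to 0.115 with detergent B and from 0.095 to -0.003 with detergent A under the hair shaft covariate. With a library left out it ranged from 0.143 to 0.252 and from 0.057 to 0.127, and the mitochondrial median from 0.194 to 0.304 and from 0.231 to 0.314. The cause of these shifts was not tested. Over 32 settings Ndufa4 was called in 27, Atp5mpl in 24, Ndufb3 in 16 and Cox6b1 in 14. For single named genes, 56 values gained and 47 lost the threshold. The 4 members called with detergent B kept log2 fold changes above 0 in all 32 settings. Genes that did not pass could change sign. With detergent A, 73 of 92 nuclear genes were above 0 as reported and 44 under the hair shaft covariate.

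Replicate numbers showed no clear pairing of the samples: of 18 same-numbered pairs, 8 had a correlation of deviations above 0.1 (range -0.348 to 0.546), and 4 matched their own number best. Other differences between libraries also enter these correlations, so they cannot show that the samples were unpaired. With the replicate number as a block 3 members passed for detergent B (Atp5mpl, Ndufa4 and Ndufb3) and 0 for detergent A, and the nuclear medians were 0.203 and 0.092. Cox7b2 and Cox8c had too few counts to be tested, and the 6 mitochondrial genes near 0 were not compared between groups.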
